A study of Homo sapiens with 8 samples.

Results

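The actin cytoskeleton and focal adhesion genes described here are a list of 53 human genes, matched by symbol to the deposited expression table. A row was found for 52 of them among the 13730 genes of the table, and MYL9 was not analysed here. By role, the 52 comprise 2 actins, 5 filament crosslinkers and scaffolds, 6 myosins, 8 tropomyosins and calponin family members, 8 subunits of the Arp2/3 complex, 10 genes of filament turnover, capping and monomer binding, 10 genes of the adhesion plaque and 3 membrane linkers. RNA-seq was done on LN229-TAZ(4SA) cells. LN229 is an established line from a human glioblastoma, and TAZ, which the construct in the name refers to, is a transcriptional coactivator of the Hippo pathway. The 4 groups were TrxR1 knockout (KO) cells in glucose-deprived medium, control (EV) cells in glucose-deprived medium, KO cells in regular medium and EV cells in regular medium, with 2 libraries each. TrxR1 is thioredoxin reductase 1, which keeps thioredoxin reduced with electrons from NADPH. All 4 groups carry the TAZ(4SA) background, and cells without it were not analysed here. The labels do not give the duration of glucose deprivation or the number of knockout clones, and they do not describe the 2 libraries of a group as separate cultures, so p-values cover only the spread between the libraries, which may be technical.

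Actin filaments grow from monomers that profilin and thymosins hold, branch at the Arp2/3 complex, are elongated by formins, and are severed and recycled by cofilin and its relatives. Tropomyosins coat the unbranched filaments, on which non-muscle myosin pulls, and alpha-actinins and filamins join filaments into bundles and nets. At focal adhesions, talin, vinculin, paxillin and zyxin connect these bundles to integrins. Monomeric actin also holds the coactivators MRTFA and MRTFB away from serum response factor (SRF), a transcription factor that binds the CArG box and controls many genes of the cytoskeleton.

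Reads summed over the table ran from 70083018 to 107229069 per library, and the lowest count of any of the 52 genes in a library was 133 reads (FLNC). Levels are given as CPM, counts scaled to a library size that differed slightly from the summed reads. They are relative levels among the mRNA reads of a library, so neither cell number nor the amount of RNA per cell can be read from them. Columns whose header ends in GlcN were read as the glucose-deprived medium, and TXNIP, which glucose induces, was at 8.46 and 8.43 CPM in glucose-deprived KO cells and 11.04 and 9.91 CPM in glucose-deprived EV cells, against 77.3 and 82.0 CPM in KO cells and 85.5 and 87.1 CPM in EV cells in regular medium. TXNRD1, which encodes TrxR1, had 370.4 and 351 CPM in KO cells against 509 and 493 CPM in EV cells without glucose, and 245 and 249 CPM in KO cells against 263 and 261 CPM in EV cells in regular medium. An edited gene can still be transcribed, so these values do not show how much protein remained. The glioma line markers VIM, CD44, NES and EGFR were expressed, whereas GFAP, an astrocyte filament, lay between 0.67 and 1.41 CPM. SOX2 lay between 15.12 and 16.9 CPM in the glucose-deprived libraries and between 37.95 and 56.0 CPM in the regular ones. Over all libraries, S100B lay between 13.16 and 23.54 CPM, OLIG2 between 6.0 and 16.87 CPM and PDGFRA between 5.88 and 7.78 CPM. Of 17 markers of leukocytes, endothelium, epithelium, smooth muscle and pericytes, 5 had a row, and their sum lay between 20 and 22.8 CPM in the 8 libraries. The 2 libraries of a group differed by more than counting noise, with a chi-square per degree of freedom of 18.5 in glucose-deprived KO cells, 4.06 in glucose-deprived EV cells, 12.5 in KO cells in regular medium and 8.08 in EV cells in regular medium. The KO pairs thus lay further apart than the EV pairs.

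The 52 genes included some of the most abundant mRNAs of the cells. Together they took 3.20% and 3.27% of the reads in glucose-deprived KO cells, 3.30% and 3.32% in glucose-deprived EV cells, 4.42% and 4.33% in KO cells and 4.22% and 4.23% in EV cells in regular medium. Per kilobase of the principal transcript, ACTB was highest in EV cells in regular medium (4186 CPM per kb), followed by ACTG1 (2216), TMSB10 (1214), CFL1 (1069) and PFN1 (894). The lowest per length were the muscle filamin FLNC (0.34 CPM per kb) and TAGLN (5.51), a smooth muscle calponin relative. All 52 passed the filter of a mean log2 CPM of at least 0.

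The promoters of 5 of the 52 genes hold a CArG box between 250 bases before and 50 bases after an annotated start, and they are shown because SRF itself is among the genes described further on. Windows of 50 bases, 5′ to 3′ on the strand of the gene, are from RefSeq on GRCh38.p14, with the CArG box in capitals. They lie at chr17:81512864-81512913 on the minus strand (ACTG1), chr14:68977708-68977757 on the minus strand (ACTN1), chr19:1026499-1026548 on the plus strand (CNN2), chrX:154374699-154374748 on the minus strand (FLNA) and chr19:16067345-16067394 on the plus strand (TPM4).
ACTG1: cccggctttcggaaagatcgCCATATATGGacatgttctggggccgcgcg
ACTN1: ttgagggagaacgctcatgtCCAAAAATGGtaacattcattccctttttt
CNN2: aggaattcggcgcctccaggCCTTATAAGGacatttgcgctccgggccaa
FLNA: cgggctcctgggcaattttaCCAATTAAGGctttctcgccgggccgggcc
TPM4: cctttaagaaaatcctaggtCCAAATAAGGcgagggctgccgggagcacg
The RefSeq table had 80 promoter windows for 49 of the 52 genes, and those for ACTB, ARPC1B and TAGLN were not among them. A CArG box was found in 5 of the 80 (6.25%) and in 454 of all 35116 promoters (1.29%), or 171 of the 15220 promoters of genes tested (1.12%). GGAATG on either strand, a motif bound by the TEAD factors that TAZ works with, was found in 11 of the 80 (13.75%) and in 4928 of all 35116 promoters (14.03%), or 1727 of the 15220 of genes tested (11.35%). The ACTN1 window above holds both motifs, which do not overlap there. A match is a description of the sequence and not a measured binding site.

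Glucose deprivation moved most of the list downward in both cell types. In KO cells, 42 of the 52 genes fell and 3 rose at a limma adjusted p under 0.05. The shares over all 13057 genes tested were 36.8% lower and 36.5% higher. The median log2 fold change of the 52 genes was -0.31 in KO cells, against -0.002 for all genes tested. In EV cells, 40 fell and 5 rose, where 38.7% of all genes tested were lower and 37.5% higher. The median there was -0.25, against -0.01 for all genes tested. The counts also depend on precision, and the median standard error was 0.037 for the 52 genes and 0.055 for all genes tested. Falls in both cell types were called for 39 genes and rises in both for 3 (DSTN, PDLIM1 and RDX). Calls shared by both cell types were not counted over all genes tested, so these 2 counts have no background beside them. Across the 52 genes the 2 deprivation effects had a Pearson r of 0.92, and across all genes tested 0.93, as a description of fold changes that share no library but do share the line and the medium. The heat map by library shows the drop in most rows.

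**Figure D1:**
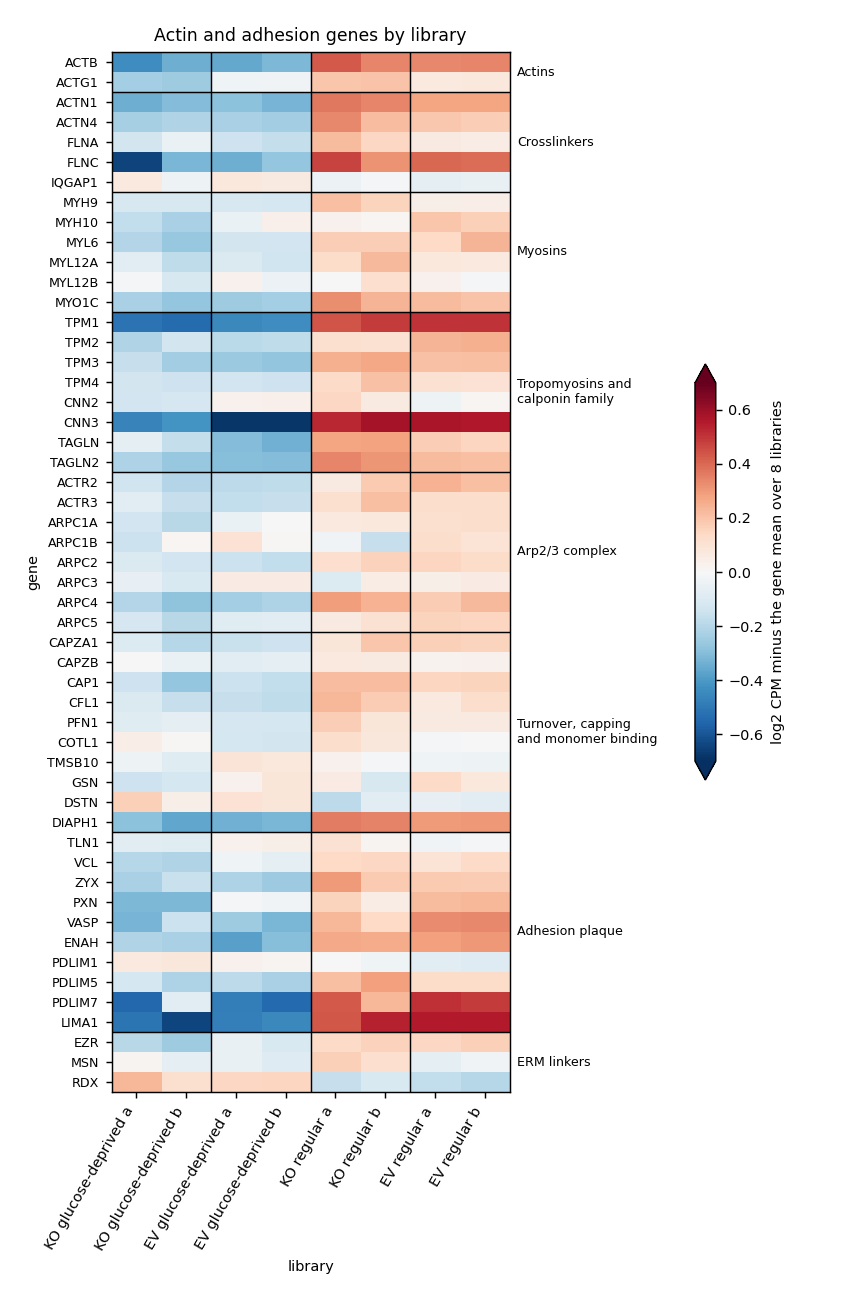
Log2 CPM of each of the 52 genes (rows, grouped by role) minus that gene's mean over the 8 libraries (columns). Most rows are blue in the 4 glucose-deprived libraries and red in the 4 regular ones, with TPM1, CNN3 and LIMA1 among the deepest and RDX reversed, and colours are capped at 0.7 on either side.

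Both cytoplasmic actins fell, but not to the same extent. ACTB, beta-actin, had 4711 and 5014 CPM in glucose-deprived KO cells, 4956 and 5112 CPM in glucose-deprived EV cells, 8566 and 8049 CPM in KO cells in regular medium, and 8018 and 8066 CPM in EV cells in regular medium. Every glucose-deprived library was below every regular one, and KO and EV libraries overlapped in each medium. Deprivation changed ACTB by -0.77 on the log2 scale in KO cells (SE 0.04, limma adjusted p = 6.5e-08) and by -0.68 in EV cells (SE 0.04, adjusted p = 1.6e-07), so that it fell by 41.5% in KO cells and fell by 37.4% in EV cells. ACTG1, gamma-actin, had 4026 and 4004 CPM in glucose-deprived KO cells, 4661 and 4672 CPM in glucose-deprived EV cells, 5431 and 5447 CPM in KO cells in regular medium, and 4989 and 5009 CPM in EV cells in regular medium. No pair of groups overlapped, KO cells being highest in regular medium and lowest without glucose. Deprivation changed ACTG1 by -0.44 in KO cells (SE 0.03, limma adjusted p = 3.6e-07) and by -0.10 in EV cells (SE 0.03, adjusted p = 0.012), the EV call being lost without any 1 of the 4 EV libraries (adjusted p between 0.059 and 0.087). The share of ACTG1 in the 2 actins, per length, was 42.1% and 40.5% in glucose-deprived KO cells and 44.5% and 43.8% in glucose-deprived EV cells, against 35.1% and 36.6% in KO cells and 34.6% in both EV libraries in regular medium. Many pseudogenes are named after ACTG1 (20) and ACTB (10), and the authors' counting of reads that match several copies is not given in the sources used here.

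Among the crosslinkers, ACTN1, ACTN4, FLNA and FLNC fell in both cell types. ACTN1, an alpha-actinin of stress fibres, had 663 and 682 CPM in glucose-deprived KO cells, 689 and 671 CPM in glucose-deprived EV cells, 1086 and 1068 CPM in KO cells in regular medium, and 1019 and 1018 CPM in EV cells in regular medium. The media did not overlap, with changes of -0.68 in KO cells (SE 0.03, limma adjusted p = 1.8e-08) and -0.58 in EV cells (SE 0.03, adjusted p = 4.8e-08). ACTN4, the other non-muscle alpha-actinin, changed by -0.50 and FLNA, the main filamin of non-muscle cells, by -0.27 in KO cells. FLNC, with 1.47 and 1.85 CPM in glucose-deprived KO cells, 1.82 and 1.91 CPM in glucose-deprived EV cells, 3.20 and 2.87 CPM in KO cells and 3.04 and 3.02 CPM in EV cells in regular medium, showed the same order at a level near the bottom of the list. Its fall was 0.87 in KO cells and 0.70 in EV cells, each with an SE of 0.13. IQGAP1, a scaffold that binds and crosslinks actin filaments, rose by 0.13 in EV cells (limma adjusted p = 0.0086), a call lost without EV glucose-deprived library a or EV regular library a (adjusted p of 0.051 and 0.06), and had a log2 fold change of 0.04 in KO cells (adjusted p = 0.35).

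**Figure D2:**
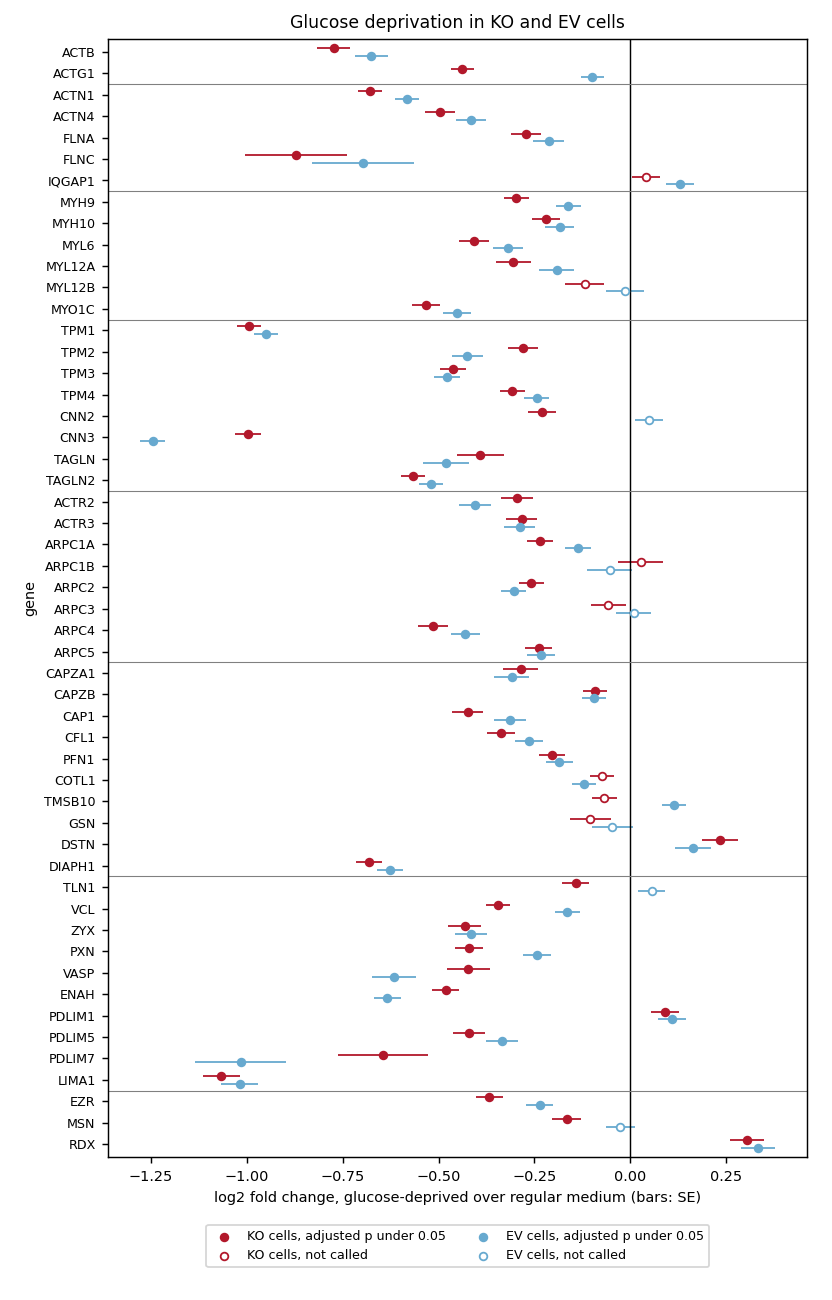
Log2 fold change of glucose-deprived over regular medium for each of the 52 genes in KO cells (red) and EV cells (blue), with limma standard errors as bars and open circles for genes not called. CNN3 lies furthest left (-1.24 in EV cells), RDX furthest right (0.33 in EV cells), and lines separate the roles in the order of the text.

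Of the myosins, MYH9, MYH10, MYL6, MYL12A and MYO1C fell in both cell types and MYL12B was called in neither. MYO1C, a single-headed myosin that links membranes to actin, had 287 and 279 CPM in glucose-deprived KO cells, 283 and 285 CPM in glucose-deprived EV cells, 422 and 397 CPM in KO cells in regular medium, and 392 and 385 CPM in EV cells in regular medium. The media stood apart, and the KO and EV libraries overlapped without glucose but not in regular medium, where the KO libraries were higher (0.07, limma adjusted p = 0.25). The changes with deprivation were -0.53 in KO cells and -0.45 in EV cells (SE 0.04 each, limma adjusted p = 3.1e-07 and 9.6e-07). MYL6, the essential light chain of non-muscle myosin, had 318 and 305 CPM in glucose-deprived KO cells, 335 and 334 CPM in glucose-deprived EV cells, 413 and 412 CPM in KO cells in regular medium, and 403 and 432 CPM in EV cells in regular medium. Its changes were -0.41 in KO cells and -0.32 in EV cells (limma adjusted p = 3.8e-06 and 2.4e-05), and its exons overlap those of MYL6B on the same strand. The heavy chains fell less, MYH9 by 0.30 in KO cells and 0.16 in EV cells, and MYH10 by 0.22 and 0.18. MYL12A and MYL12B encode near-identical regulatory light chains, so reads could be split between them. The log2 fold change in KO cells was -0.31 for MYL12A and -0.12 for MYL12B (limma adjusted p = 0.00012 and 0.051).

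Of the tropomyosins and calponin family, all 8 genes fell in KO cells and 7 of 8 in EV cells. CNN3, calponin 3, an actin-binding regulator of stress fibres, had 233 and 242 CPM in glucose-deprived KO cells, 201 CPM in both glucose-deprived EV libraries, 465 and 482 CPM in KO cells in regular medium, and 480 and 475 CPM in EV cells in regular medium. Its level fell by 57.8% in EV cells (log2 fold change -1.24, SE 0.03, limma adjusted p = 3.3e-10) and fell by 49.9% in KO cells (-0.996, SE 0.03, adjusted p = 1.8e-09). TPM1, which gives rise to several long tropomyosins of stress fibres, had 595 and 587 CPM in glucose-deprived KO cells, 624 and 630 CPM in glucose-deprived EV cells, 1157 and 1198 CPM in KO cells in regular medium, and 1209 and 1212 CPM in EV cells in regular medium. The media stood far apart, with changes of -0.99 in KO cells and -0.95 in EV cells (SE 0.03 each, limma adjusted p = 1.1e-09 and 1.5e-09), and the level fell by 49.8% in KO cells and fell by 48.2% in EV cells. The other tropomyosins fell less, TPM3 by 0.46 in KO cells and 0.48 in EV cells, TPM2 by 0.28 and 0.42, and TPM4 by 0.31 and 0.24. The make-up of the 4 tropomyosins therefore shifted. TPM1 made up 26.9% and 27.2% of them, per length, in glucose-deprived KO cells and 28.6% and 28.9% in glucose-deprived EV cells, against 36.1% and 36.3% in KO cells and 37.5% in both EV libraries in regular medium. TPM4 made up 30.7% and 31.1% in glucose-deprived KO cells and 30.9% and 30.8% in glucose-deprived EV cells, against 25.4% and 25.9% in KO cells and 24.8% and 24.6% in EV cells in regular medium. TAGLN2 fell by 0.57 in KO cells and 0.52 in EV cells, and TAGLN by 0.39 and 0.48. CNN2 fell in KO cells (-0.23, limma adjusted p = 0.00017), and in EV cells its change was 0.05 (adjusted p = 0.25).

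**Figure D3:**
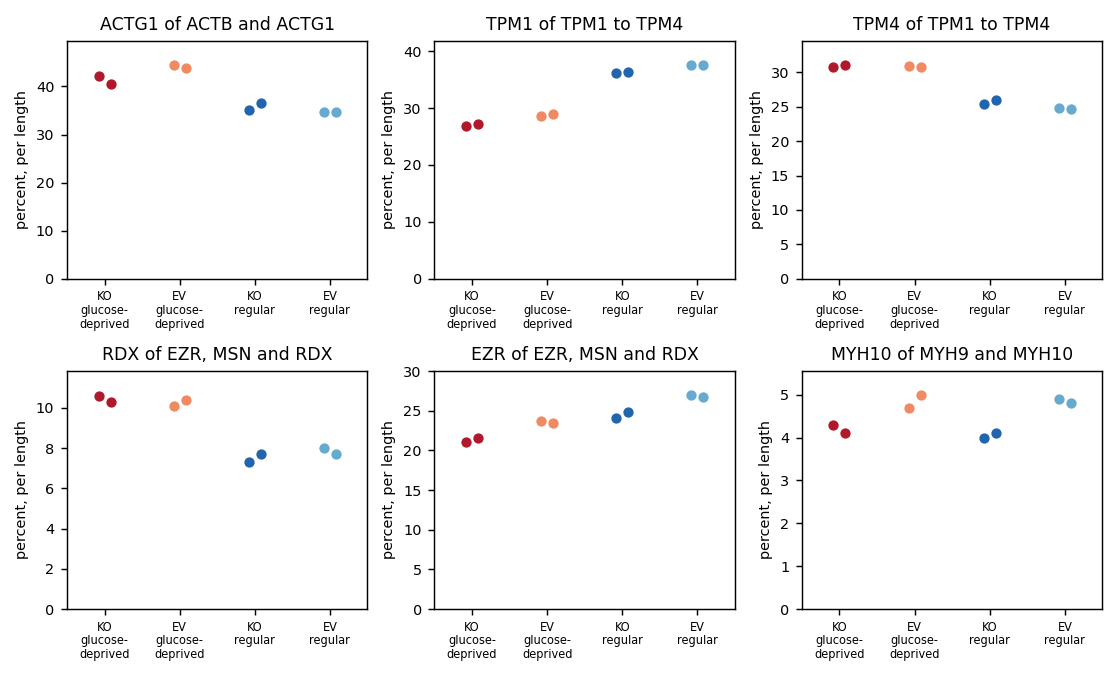
Share of 1 gene within its family, in percent of the family's CPM per kilobase, with 1 point per library and axes starting at 0. ACTG1, TPM4 and RDX take a larger share in the glucose-deprived libraries, TPM1 and EZR a smaller one, and MYH10 is lower in KO than in EV cells in both media.

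In the Arp2/3 complex, which nucleates branched filaments, the same 6 of 8 subunits fell in both cell types (ACTR2, ACTR3, ARPC1A, ARPC2, ARPC4 and ARPC5), and ARPC1B and ARPC3 were called in neither. ARPC4 had 109 and 104 CPM in glucose-deprived KO cells, 107 and 109 CPM in glucose-deprived EV cells, 155 and 149.8 CPM in KO cells in regular medium, and 143 and 148 CPM in EV cells in regular medium, a change of -0.51 in KO cells and -0.43 in EV cells (SE 0.04 each, limma adjusted p = 5.8e-07 and 2.1e-06). ACTR2, 1 of the 2 actin-related subunits, had 332 and 318 CPM in glucose-deprived KO cells, 323 and 324 CPM in glucose-deprived EV cells, 382 and 415 CPM in KO cells in regular medium, and 433 and 423 CPM in EV cells in regular medium. For both genes the media did not overlap. ACTR2 changed by -0.41 in EV cells, and ACTR3, the other actin-related subunit, by -0.29. ARPC1A and ARPC1B are alternative forms of 1 subunit. ARPC1A fell by 0.24 in KO cells and 0.14 in EV cells, whereas the log2 fold changes of ARPC1B were 0.03 in KO cells and -0.05 in EV cells (limma adjusted p = 0.7 and 0.42). Without EV glucose-deprived library a, the adjusted p of ARPC1A in EV cells was 0.054.

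Filament turnover genes were mixed. DIAPH1, a formin that elongates unbranched filaments, had 245 and 232 CPM in glucose-deprived KO cells, 237 and 239.7 CPM in glucose-deprived EV cells, 383 and 381 CPM in KO cells in regular medium, and 367 and 369 CPM in EV cells in regular medium. The media stood well apart, with changes of -0.68 in KO cells and -0.63 in EV cells (SE 0.03 each, limma adjusted p = 2.9e-08 and 4.8e-08). CAP1, which recycles monomers with cofilin, had 459 and 420.0 CPM in glucose-deprived KO cells, 458 and 449 CPM in glucose-deprived EV cells, 590.0 and 588 CPM in KO cells in regular medium, and 563 and 564.5 CPM in EV cells in regular medium, a change of -0.42 in KO cells and -0.31 in EV cells. CFL1, cofilin 1, fell by 0.34 in KO cells and 0.26 in EV cells, and PFN1, profilin 1, by 0.20 and 0.19. The capping subunits CAPZA1 and CAPZB fell by 0.29 and 0.09 in KO cells and by 0.31 and 0.09 in EV cells, the CAPZB calls being lost without either EV regular library (adjusted p between 0.052 and 0.11), among other libraries. DSTN, a close relative of cofilin, rose instead, by 0.23 in KO cells (limma adjusted p = 0.00098) and by 0.16 in EV cells (adjusted p = 0.0089, and 0.054 and 0.058 without EV glucose-deprived library a or EV regular library b). The level of DSTN was 11.8% and 11.3% of that of CFL1, per length, in glucose-deprived KO cells and 11.8% in both glucose-deprived EV libraries, against 7.3% and 8.2% in KO cells and 9.0% and 8.5% in EV cells in regular medium. TMSB10, which sequesters monomers, rose by 0.11 in EV cells (limma adjusted p = 0.0077, and 0.056 and 0.06 without EV glucose-deprived library a or EV regular library b) and had a log2 fold change of -0.07 in KO cells (adjusted p = 0.078). The filament-severing gelsolin GSN was called in neither, and COTL1, a filament-binding coactosin, fell in EV cells by 0.12 (limma adjusted p = 0.0045).

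In the adhesion plaque, 9 of 10 genes fell in KO cells and 8 of 10 in EV cells. LIMA1, a LIM protein that bundles and stabilises stress fibres, had 115 and 106 CPM in glucose-deprived KO cells, 118 and 121 CPM in glucose-deprived EV cells, 223 and 239.9 CPM in KO cells in regular medium, and 242 CPM in both EV libraries in regular medium. The media stood far apart, with changes of -1.07 in KO cells and -1.02 in EV cells (SE 0.05 each, limma adjusted p = 1.5e-08 and 1.9e-08), and the level fell by 52.2% in KO cells and fell by 50.6% in EV cells. PDLIM7, a PDZ and LIM domain adaptor, had 54.4 and 75.5 CPM in glucose-deprived KO cells, 56.9 and 54.6 CPM in glucose-deprived EV cells, 107 and 93.5 CPM in KO cells in regular medium, and 114 and 112 CPM in EV cells in regular medium. Here the 2 glucose-deprived KO libraries were far apart, and the changes were -0.64 in KO cells and -1.02 in EV cells (SE 0.12 each, limma adjusted p = 0.00055 and 1.7e-05). The change in KO cells was -0.41 without KO glucose-deprived library a and -0.88 without library b. Both Ena/VASP genes, which protect growing filament ends, fell, ENAH by 0.48 in KO cells and 0.63 in EV cells, and VASP by 0.42 and 0.62. ZYX, the LIM protein zyxin that recruits them, fell by 0.43 in KO cells and 0.42 in EV cells, and PDLIM5 by 0.42 and 0.34. VCL, PXN and TLN1 encode proteins that link integrins to actin. VCL, vinculin, fell by 0.35 in KO cells and 0.16 in EV cells, PXN, paxillin, by 0.42 and 0.24, and TLN1, talin 1, by 0.14 in KO cells (limma adjusted p = 0.0035), with a change of 0.06 in EV cells (adjusted p = 0.17). PDLIM1 rose by 0.09 in KO cells and by 0.11 in EV cells (limma adjusted p = 0.046 and 0.018), small rises whose calls were lost without any 1 of 7 libraries in KO cells, and in EV cells without any 1 of the 4 libraries of EV cells (adjusted p between 0.07 and 0.14).

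The membrane linkers ezrin, moesin and radixin, which tether filaments to the plasma membrane, went different ways. RDX, radixin, had 102 and 94.2 CPM in glucose-deprived KO cells, 96.4 and 97.02 CPM in glucose-deprived EV cells, 78.0 and 81.2 CPM in KO cells in regular medium, and 77.6 and 76.0 CPM in EV cells in regular medium. It was higher in every glucose-deprived library, by 0.30 in KO cells and 0.33 in EV cells (SE 0.04 each, limma adjusted p = 0.00011 and 4.9e-05), the largest rise among the 52 genes. EZR, ezrin, had 141 and 136 CPM in glucose-deprived KO cells, 156 and 150.3 CPM in glucose-deprived EV cells, 177 and 181 CPM in KO cells in regular medium, and 179 and 181 CPM in EV cells in regular medium. It fell by 0.37 in KO cells and 0.24 in EV cells (limma adjusted p = 3.9e-06 and 0.00011). MSN, moesin, the most abundant of these linkers per length, fell by 0.17 in KO cells (limma adjusted p = 0.0023) and had a log2 fold change of -0.03 in EV cells (adjusted p = 0.54).

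In regular medium, 3 of the 52 genes were higher in KO than in EV cells (ACTG1, MYH9 and MSN) and 1 was lower (MYH10). Of all genes tested, 3.87% were higher and 3.38% lower, so the counts on the list were near that background. The median log2 fold change was 0.04, against -0.003 for all genes tested. MYH9, the heavy chain of myosin IIA, had 4779 and 4602 CPM in KO cells against 4241 and 4263 CPM in EV cells, and MYH10, that of myosin IIB, had 202 and 199.7 CPM in KO cells against 226 and 222 CPM in EV cells. Neither gene overlapped between the groups, and the 2 changes were 0.14 (SE 0.03, limma adjusted p = 0.028) and -0.16 (SE 0.04, adjusted p = 0.031). MSN had 643 and 622 CPM in KO cells against 550.0 and 563 CPM in EV cells, a change of 0.18 (SE 0.04, limma adjusted p = 0.017), and ACTG1, with the values given above, changed by 0.12 (SE 0.03, adjusted p = 0.04). Each of these 4 calls was lost without either EV regular library (adjusted p between 0.11 and 0.3), without KO regular library a (between 0.074 and 0.13) and without the variance trend.

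In glucose-deprived medium, 4 of the 52 genes were higher in KO than in EV cells and 10 were lower, where 9.04% of all genes tested were higher and 10.6% lower. The median was 0.00 for the 52 genes and -0.01 for all genes tested. Lower in KO cells were PXN, ACTG1, MYH10, GSN, CNN2, VCL, ARPC1A, EZR, TMSB10 and TLN1, and higher were CNN3, TAGLN, COTL1 and ENAH. The calls for PXN, ACTG1 and CNN3 held under every setting and left-out library tried. The comparison shares the glucose-deprived EV libraries with the deprivation effect in EV cells. Leaving out either of them cut the calls among the 52 genes, and the calls over all genes tested fell as well.

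PXN, a scaffold phosphorylated by focal adhesion kinase, had 287 CPM in both KO libraries against 355 and 350.1 CPM in EV cells without glucose, a change of -0.30 (SE 0.04, limma adjusted p = 0.00052). In regular medium it had 397 and 370.3 CPM in KO cells against 417 and 419 CPM in EV cells (-0.12, adjusted p = 0.072). The groups did not overlap in either medium. PXN-AS1 lies on the opposite strand over the exons of PXN, and the library preparation does not mark strand, so their reads cannot be told apart. The same limit holds for all 15 genes of the list whose exons overlap a gene of the table on the opposite strand. Of those called here for knockout without glucose, they include PXN, MYH10, VCL, GSN, TLN1, TMSB10 and TAGLN. The others are ACTN4, MYL6, ARPC1B, ARPC4, CAPZA1, CAP1, CFL1 and PFN1. VCL, with 150.5 and 149.6 CPM in glucose-deprived KO cells against 169 and 165 CPM in EV cells, changed by -0.15 (SE 0.03, limma adjusted p = 0.009, and 0.097 and 0.052 without EV glucose-deprived library a or b). TLN1 was lower in KO cells without glucose (-0.11, limma adjusted p = 0.045, lost without any 1 of 6 libraries, at up to 0.21), and ENAH was higher (0.12, limma adjusted p = 0.037, lost without any 1 of 6 libraries, at up to 0.28). The other 6 of the 10 adhesion plaque genes, ZYX among them (0.05, adjusted p = 0.5), were not called, and the median of the 10 was 0.04.

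CNN3 was 0.24 higher in KO cells without glucose (SE 0.03, limma adjusted p = 0.0011) at the levels given above, with a log2 fold change of -0.01 in regular medium (adjusted p = 0.88). MYH10 had 176 and 169 CPM in glucose-deprived KO cells against 192 and 203 CPM in EV cells, a change of -0.19 (SE 0.04, limma adjusted p = 0.0062, and 0.079 without EV glucose-deprived library b). Its share of the MYH9 and MYH10 level per length was 4.3% and 4.1% in glucose-deprived KO cells against 4.7% and 5.0% in EV cells, and 4.0% and 4.1% in KO cells against 4.9% and 4.8% in EV cells in regular medium. GSN, with 62.6 and 63.5 CPM in glucose-deprived KO cells against 70.6 and 73.3 CPM in EV cells, changed by -0.19 (SE 0.05, limma adjusted p = 0.033), and COTL1, with 446 and 435 CPM in KO cells against 398 and 395 CPM in EV cells, by 0.15 (SE 0.03, adjusted p = 0.0081). TAGLN had 10.2 and 9.53 CPM in KO cells against 8.65 and 8.45 CPM in EV cells (0.21, SE 0.06, limma adjusted p = 0.038). ARPC1A had 187 and 179.5 CPM in KO cells against 199 and 206 CPM in EV cells (-0.14, SE 0.03, limma adjusted p = 0.016). None of these pairs of groups overlapped, but the GSN, COTL1, TAGLN and ARPC1A calls were each lost without either glucose-deprived EV library (adjusted p between 0.058 and 0.2). The same held for EZR (-0.14, limma adjusted p = 0.02, and 0.17 and 0.062 without library a or b), TMSB10 (-0.14, adjusted p = 0.014, and 0.11 and 0.084) and CNN2 (-0.16, adjusted p = 0.012, and 0.084 and 0.091). Leaving out glucose-deprived KO library a also ended the calls for GSN and TAGLN (adjusted p of 0.08 and 0.14), and leaving out library b those for GSN, ARPC1A and EZR (0.08, 0.07 and 0.081). The GSN and TAGLN calls were lost without either EV regular library too (0.056 and 0.071).

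**Figure D4:**
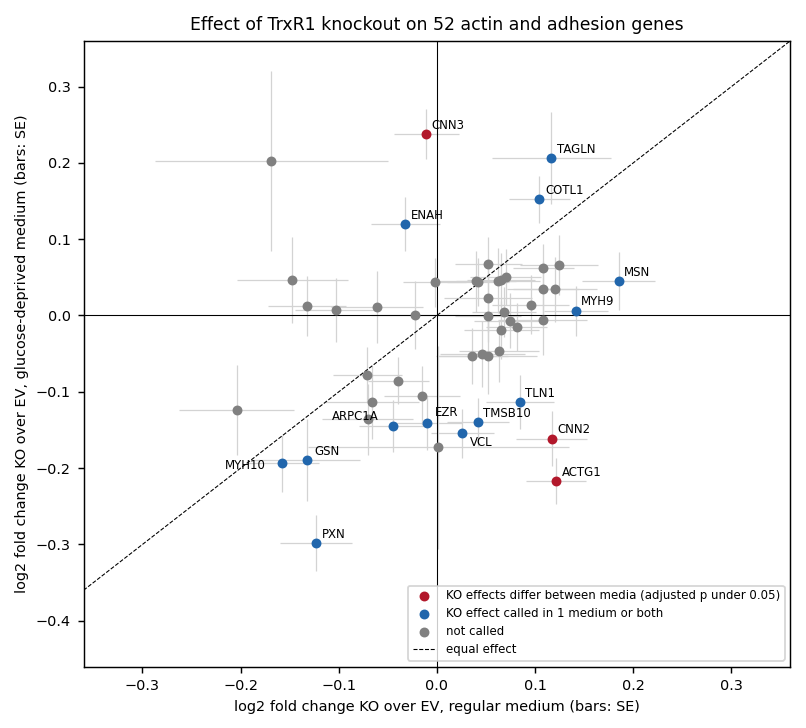
Log2 fold change of KO over EV for each of the 52 genes in regular medium (horizontal) and in glucose-deprived medium (vertical), with limma standard errors as grey bars and a dashed line of equal effects. ACTG1 and CNN2 lie right of 0 and below it (0.12 and -0.22 for ACTG1), CNN3 lies near 0 on the horizontal and at 0.24 on the vertical axis, and PXN is the lowest point (-0.30).

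For 3 of the 52 genes the effect of the knockout differed between the media by the interaction test. It was higher for 1 and lower for 2. Of all genes tested, 2.31% were called higher and 2.01% lower, so the counts on the list were near that background. The effect on ACTG1 was 0.34 lower without glucose (SE 0.04, limma adjusted p = 0.0024), and this call held under every setting and left-out library tried. For CNN2, the calponin of many non-muscle cells, levels were 192 and 193 CPM in KO cells against 215 and 216 CPM in EV cells without glucose, and 232 and 219.9 CPM in KO cells against 205 and 212 CPM in EV cells in regular medium. KO lay above EV in regular medium and below it without glucose, with no overlap in either. The effect was 0.28 lower without glucose (SE 0.05, limma adjusted p = 0.015). For CNN3 it was 0.25 higher without glucose (SE 0.05, limma adjusted p = 0.018). The CNN2 and CNN3 calls were each lost without any 1 of the 4 EV libraries (adjusted p between 0.054 and 0.13). As many as 11 pseudogenes are named after CNN2. Across the 52 genes, 2 effects of the knockout, which share no library, had a Pearson r of 0.26, and across all genes tested 0.22, as a description.

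**Figure D5:**
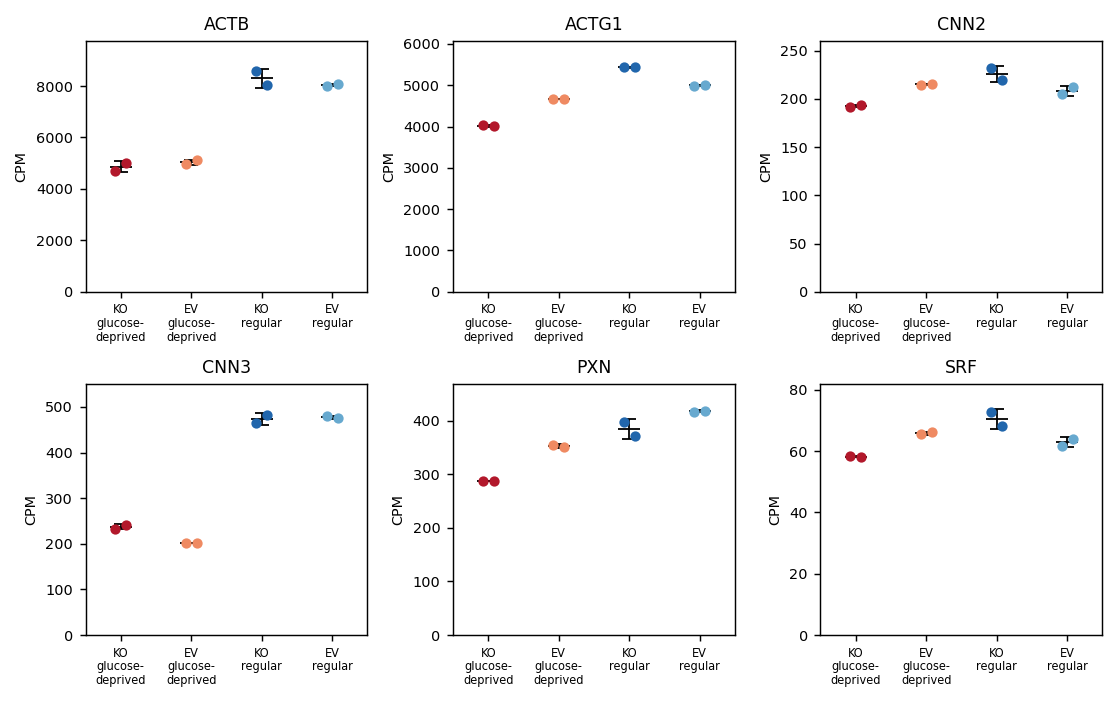
CPM in each library (points), with the mean and SD of the 2 libraries of a group (black bars), for 5 of the 52 genes and for SRF, on axes starting at 0. ACTG1, CNN2 and SRF are lowest in glucose-deprived KO cells and highest in KO cells in regular medium, ACTB and CNN3 divide by medium, and PXN is lowest in glucose-deprived KO cells (287 CPM).

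The genes whose promoter windows were printed above, ACTG1, ACTN1, CNN2, FLNA and TPM4, can be set beside SRF. Their KO effects in regular medium were 0.12, 0.08, 0.12, 0.12 and 0.07, and the differences of that effect between the media were -0.34, -0.10, -0.28, -0.06 and -0.06, of which ACTG1 and CNN2 were called. Most of the list leaned the same way, but the Arp2/3 complex did not. The KO effect in regular medium was positive for 32 of the 52 genes, with a median of 0.04. Over all 13057 genes tested it was positive for 6365, and among the Arp2/3 subunits for 2 of 8. The difference between the media was negative for 37 of the 52, with a median of -0.06. Over all genes tested it was negative for 6703, with a median of -0.005, and among the Arp2/3 subunits for 4 of 8. For every gene, SRF included, this difference subtracts the effect in regular medium, so the 2 leanings are tied by arithmetic. Without glucose the KO effect was positive for 26 of the 52 genes, with a median of 0.00. SRF, which is outside the 52 genes, had 58.3 and 58.1 CPM in glucose-deprived KO cells against 65.5 and 66.2 CPM in EV cells, and 72.7 and 68.2 CPM in KO cells against 61.7 and 64.0 CPM in EV cells in regular medium. KO lay above EV in regular medium (0.16, limma adjusted p = 0.042, lost without any 1 of 5 libraries at up to 0.33) and below it without glucose (-0.18, adjusted p = 0.015, lost without any 1 of 3 libraries at between 0.051 and 0.11). The effect differed between the media by -0.34 (SE 0.06, limma adjusted p = 0.011), which without EV glucose-deprived library a or b or EV regular library a had an adjusted p of 0.061, 0.07 or 0.091. Whether SRF activity differed was not tested.

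A wider list of 73 other actin regulator, adhesion and SRF pathway genes, of which 70 had a row, gave the surroundings of the 52. Deprivation lowered 42 and raised 15 of the 70 in KO cells and lowered 44 and raised 14 in EV cells, with medians of -0.20 and -0.18. Of all genes tested, 36.8% were lower and 36.5% higher in KO cells, and 38.7% were lower and 37.5% higher in EV cells. Some of the rises were large. ARHGEF2, the microtubule-associated exchange factor GEF-H1, had 769 and 789 CPM in glucose-deprived KO cells and 788 and 774 CPM in glucose-deprived EV cells, against 227 and 218 CPM in KO cells and 215 and 219 CPM in EV cells in regular medium. Its log2 fold change was 1.81 in KO cells and 1.85 in EV cells (SE 0.03 each, limma adjusted p = 2e-11 and 1.8e-11). CAPG, a capping protein, rose by 1.37 in KO cells and 1.42 in EV cells, and ACTN2, the sarcomeric alpha-actinin, by 1.60 and 1.29, each at a low level, with at most 4.60 CPM (CAPG) and 7.16 CPM (ACTN2) in a library. Among the falls, LASP1, a LIM and SH3 protein of adhesions, had 174 CPM in both glucose-deprived KO libraries against 355 and 338 CPM in KO cells in regular medium (-0.99, SE 0.03, limma adjusted p = 2.3e-09). BCAR1, the adhesion scaffold p130Cas, had 51.3 and 48.2 CPM in glucose-deprived EV cells against 138 and 134 CPM in EV cells in regular medium (-1.45, SE 0.14, limma adjusted p = 3.1e-06), and changed by -0.91 in KO cells. FSCN1, the bundling protein fascin, had 223 and 222 CPM in glucose-deprived EV cells against 552 and 516 CPM in EV cells in regular medium (-1.26, SE 0.11, limma adjusted p = 2.3e-06).

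For knockout, 3 of the 70 were called in regular medium and 13 without glucose. In regular medium SRF and RND3 were higher and MYLK, myosin light chain kinase, was lower, with 40.2 and 41.2 CPM in KO cells against 47.3 and 46.01 CPM in EV cells (-0.20, limma adjusted p = 0.02, lost without KO library a at 0.074 and without either EV library at 0.21 and 0.12). Of all genes tested in that medium, 3.87% were higher and 3.38% lower. Without glucose, 6 were higher and 7 lower in KO cells, where 9.04% of all genes tested were higher and 10.6% lower, so the share of the 70 was near that background. RND3, which opposes ROCK1, had 153 and 149 CPM in KO cells against 107 and 104 CPM in EV cells without glucose, and 84.6 and 89.3 CPM in KO cells against 77.5 and 76.2 CPM in EV cells in regular medium. It was higher in KO cells in both media, by 0.51 (SE 0.04, limma adjusted p = 2.1e-05) and 0.18 (adjusted p = 0.024), and the difference between the media was 0.33 (SE 0.06, limma adjusted p = 0.0091). The call in regular medium was lost without any 1 of 5 libraries (at up to 0.2), and that of the difference without EV glucose-deprived library b or EV regular library a (0.067 and 0.072). SSH1, slingshot, the phosphatase that activates cofilin, had 284 and 269.6 CPM in KO cells against 347 and 349 CPM in EV cells without glucose, and 156 and 144 CPM in KO cells against 155 CPM in both EV libraries in regular medium. Its KO effect was -0.33 without glucose (SE 0.04, limma adjusted p = 0.00064) and -0.05 in regular medium (adjusted p = 0.55), a difference of -0.29 (SE 0.06, adjusted p = 0.028, lost without KO glucose-deprived library b or any 1 of the 4 EV libraries at between 0.06 and 0.14). RHOB, a stress-induced small GTPase, had 98.8 and 120.2 CPM in KO cells against 82.0 and 79.6 CPM in EV cells without glucose (0.43, SE 0.08, limma adjusted p = 0.0041). ACTN2 was 0.46 higher in KO cells (limma adjusted p = 0.013, and 0.083 and 0.12 without library b of the glucose-deprived KO or EV cells). FSCN1 was 0.36 higher (limma adjusted p = 0.049), and 0.16 higher at an adjusted p of 0.26 without KO glucose-deprived library b.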

How the data were processed

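TRIzol was used for extraction, and the SMART-Seq mRNA HT kit with Nextera XT for the libraries, per the labels' protocols; this preparation does not mark strand. HISAT2, edgeR and GRCh38 are named in the submitters' processing notes, without versions. Counting, annotation and gene filter are not given in the sources used here. The deposited values are log2 CPM for 13730 genes (82 without a symbol), a unit read from the values. In each library they gave whole reads for 100% of genes (tolerance 0.05) above an offset of 0.023 CPM, which was removed from the CPM printed. Group headers carry no replicate number, so a and b name the columns in file order. The members and lists were chosen with earlier results of these data known, and all members may be named. Values per library are given for the actins and, in each role and comparison, up to 2 called members with the largest change, and up to 5 called related genes per comparison are named, some with their values in the other comparisons (SRF without glucose).

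The deposited log2 values of the 13057 genes with a mean of at least 0 were fitted with limma 3.58.1 (R 4.3.3) in 1 model over 4 groups with a variance trend, 4 residual and 6.29 prior degrees of freedom. P-values are two-sided, adjusted by Benjamini-Hochberg over all genes tested, and called under 0.05 in 5 contrasts. The steps were tested on simulated data in which few genes changed and all genes and groups shared a common spread. The deprivation contrasts, where most genes were called, and the unequal spread of the groups lie outside that setting. Alternatives were median-of-ratios scaling, other filters, a prior of 5 reads, no variance trend, only the 4 libraries compared, and leaving out each library. Coordinates of the promoter windows and transcript lengths are from RefSeq GRCh38.p14 and GENCODE 29. Of the related list, MKL1 and MKL2 are older names of listed genes.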

Additional observations from a re-analysis of the deposited data

Results flagged for a closer look

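The effect of TrxR1 knockout differed between the media by the interaction test for 3 of the 52 genes. It was lower without glucose than in regular medium for ACTG1 by a log2 value of -0.34 and for CNN2 by -0.28, and higher for CNN3 by 0.25. By the same test, 2.31% of all genes tested were called higher and 2.01% lower, so the counts on the list were near that background. In the wider list of 70, 1 gene was called higher, RND3 (0.33), and 2 lower, SRF (-0.34) and SSH1 (-0.29). Of these 6, only ACTG1 kept its call under all settings and left-out libraries. The others were each lost without at least 2 of the 4 EV libraries. No group had enough libraries to test a single one for standing apart.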

How the results depend on the processing

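Of 111 calls among the 52 genes, 85 held under all alternatives run and none changed sign. They were 43 of 45 for deprivation in KO cells, 38 of 45 in EV cells, 3 of 14 for knockout without glucose, 0 of 4 in regular medium and 1 of 3 for the interaction. The no-filter and 5-read settings lost 0 calls. Without the variance trend, the counts of higher and lower genes were 0 and 0 for knockout in regular medium, 0 and 1 for the interaction, and 5 lower for knockout without glucose. With only the 4 libraries compared, 2 were lower for knockout in regular medium and 2 higher without glucose. Interaction falls numbered 5 with median-of-ratios scaling and 5 when genes had to average 3 or more on the log2 scale. Leaving out 1 library gave 0 to 7 higher and 0 to 4 lower for knockout in regular medium, 1 to 4 higher and 2 to 13 lower without glucose, 1 to 5 higher for deprivation in EV cells, and 0 to 4 higher and 1 to 7 lower for the interaction. A group left with 1 library is assumed to vary like the others. Calls over all genes tested also shifted in number with the library left out. The cause of these shifts was not tested. Depth limits mainly FLNC, with as few as 133 reads in a library; apart from FLNC and TAGLN, every gene of the list had at least 3760. No paired analysis was possible because the table's columns carry no replicate number. A count test with edgeR on the recovered reads was planned and not run, since the deposited unit is log2.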
